A study of Arabidopsis thaliana with 72 samples.

Results

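A total of 195 of 22746 probe sets were selected for a higher signal under methyl jasmonate (MJ) than under mock at 30 min in Arabidopsis seedlings, by a rule that left out genes with a higher signal under abscisic acid (ABA) at 3 h. A probe set is a group of probes on an Affymetrix ATH1 array that reads the transcripts of 1 gene or of several. Members had an MJ minus mock difference of at least 1 on the log2(scaled signal + 55) scale at 30 min in Col-0, both MJ arrays above both mock arrays, a mean under MJ of at least 8.5 on that scale, and an ABA minus mock difference below 0.5 at 3 h. Another 2 probe sets were left out by name. The members fell into 139 sustained ones, whose MJ minus mock difference at 3 h was at least 0.5, and 56 transient ones, where it was lower. The annotation used here named 1 gene for 71 sustained and 38 transient members and several genes for 2 sustained ones. It left 66 sustained and 18 transient members unnamed, which are called by their probe set. Over the whole array it gave no gene for 8730 probe sets. A listed gene that is not named here may thus still have been measured.

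Seedlings were 7 days old and grown at 22 °C, and whole seedlings were measured on 72 arrays, 2 per group. Wild-type Col-0 received mock treatment or 1 of 7 hormones, and was sampled at 3 times (30 min, 1 h and 3 h). The doses were 10 µM for MJ, for ABA and for the ethylene precursor ACC, 1 µM for the auxin indole-3-acetic acid (IAA), the cytokinin zeatin and gibberellin A3 (GA3), and 10 nM for the brassinosteroid brassinolide (BL). The gibberellin-deficient mutant ga1-5 received mock or 1 µM GA3, and the brassinosteroid-deficient mutant det2-1 received mock or 10 nM BL, at the same 3 times. No mutant was treated with MJ. Nothing in the labels states whether both arrays of a group stem from independent cultures, and p-values thus reflect array-to-array spread that could be technical. Each genotype and time coincided with its own lettered set of arrays, 9 sets in all, so a difference between genotypes or times cannot be told apart from one between sets. In whole seedlings a lower share of cells of a type and less RNA per cell cannot be told apart. Of the organ markers, only RCA, which encodes rubisco activase and marks green tissue, was named on the array; its MJ minus mock difference at 1 h was -0.55 (SE 0.68, limma adjusted p = 0.785).

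Jasmonates are lipid-derived hormones made in plastids and peroxisomes, and plants make them after wounding and insect attack. Their active form, jasmonoyl-isoleucine, joins the receptor COI1 to JAZ repressors, which are then degraded, and this frees MYC and related transcription factors. Genes of jasmonate synthesis and breakdown are themselves among the known early targets, as are genes of glucosinolate defence in this family of plants.

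The members were selected on the MJ and mock values at 30 min and 3 h and on ABA at 3 h, so these values are a description. In the fit over all probe sets, 114 of 139 sustained and 16 of 55 transient members passed at 30 min (background 1.41% up), and nothing is read from these counts. The median MJ minus mock difference of the sustained members was 1.61 at 30 min, 2.13 at 1 h and 1.87 at 3 h. The largest of the 3 differences fell at 1 h for 83 of the 139, at 3 h for 36 and at 30 min for 20. For the transient members the medians were 1.14, 0.44 and -0.11, and 50 of the 56 were highest at 30 min and 6 at 1 h. Just inside the 30 min limit lay AT4G23970 (transient, 1.002), 255634_at (transient, 1.005) and AT1G54050 (sustained, 1.005), and just outside it lay 264647_at (0.989), 262310_at (0.988) and AT5G44350 (0.988). These near neighbours differed little at 30 min but widely at 1 h, from -0.70 for 255634_at to 1.82 for AT5G44350.

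**Figure D1:**
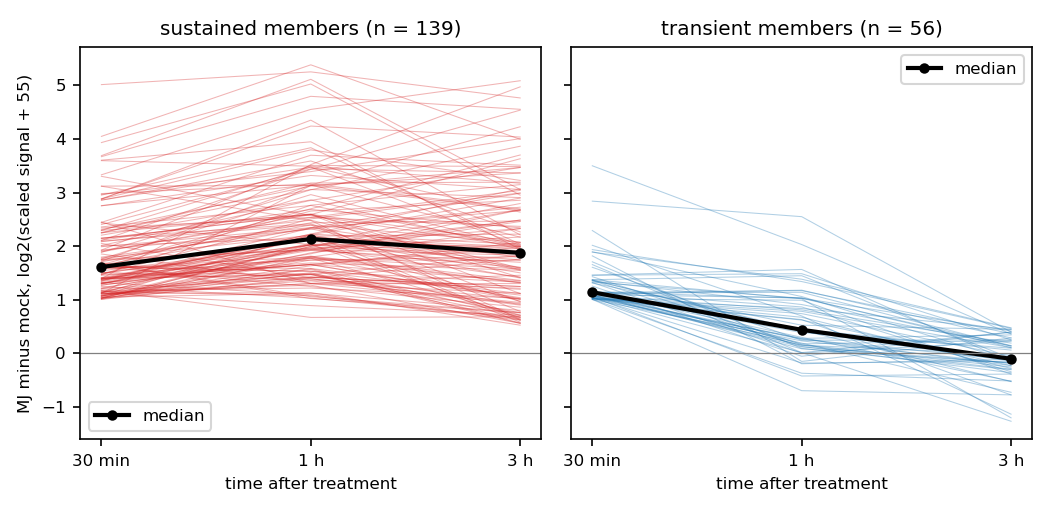
MJ minus mock difference on the log2(scaled signal + 55) scale (vertical axis) at 30 min, 1 h and 3 h in Col-0, with 1 thin line per member and the median in black. The sustained median is highest at 1 h (2.13), and the transient median falls from 1.14 to -0.11.

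The 1 h arrays took no part in the choice and were tested. At 1 h MJ raised 131 of the 139 sustained members over mock, and none fell, while 3.53% of all 17266 probe sets tested rose (limma, adjusted p under 0.05). Their median difference was 2.13, with a range of 0.67 to 5.39, against a median of -0.04 over all probe sets tested. Both MJ arrays lay above both mock arrays for 138 of the 139, against 19.5% of all probe sets tested. All 139 had passed the filter on low signal, which a member could pass through its MJ arrays alone. The 8 that did not pass the test had differences between 0.67 (AT4G24030) and 1.41 (262391_at).

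Jasmonate synthesis was represented by OPCL1, which encodes the peroxisomal CoA ligase that activates a jasmonate precursor for shortening of its side chain. Its scaled signal was 1369 and 1228.5 on the mock arrays and 10542 and 8991 on the MJ arrays at 30 min. At 1 h it was 1177 on both mock arrays and 13998 and 15608 under MJ, so the groups lay far apart. OPCL1 rose 12-fold at 1 h (log2 difference 3.59, SE 0.24, limma adjusted p = 5e-15). At 3 h its signals were 5496 and 5725 under MJ, lower than at 1 h but above the 1080 and 1168 of mock. Of 18 genes listed for jasmonate synthesis, the annotation named 2, and of these OPCL1 was the only one tested.

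The list of jasmonate catabolism holds AT5G05600 and AT2G38240, 2 loci that carry no gene name in the annotation. AT5G05600 had signals of 879.5 and 855 on the mock arrays at 1 h and 16960 and 17839 under MJ. The groups lay far apart, and AT5G05600 rose 18.9-fold at 1 h (log2 difference 4.24, SE 0.43, limma adjusted p = 4.85e-10). At 3 h it stayed near that level, at 15064 and 18097.5. AT2G38240 was dimmer, with 511 and 274 in mock and 3158 and 2245 under MJ at 1 h, a 6.3-fold rise (adjusted p = 1.57e-05). Of the 10 genes in the list 3 were tested, and all 3 rose; the one outside the members is JRG21, annotated as a jasmonate-regulated gene.

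JRG21 missed the 30 min limit on the difference, and its MJ arrays did not both lie above both mock arrays there. Its scaled signals at 30 min were 159 and 88 in mock and 256 and 97 under MJ. Its MJ minus mock difference was 0.31 at 30 min, 3.00 at 1 h (SE 0.58, limma adjusted p = 0.000321) and 4.58 at 3 h, so its largest difference came at 3 h, where that of OPCL1 came at 1 h. The annotation named no gene of the JAZ list (12 genes). Whether JAZ genes are among the unnamed probe sets, members included, cannot be told from it.

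UGT74B1 is the member from the list of tryptophan and glucosinolate synthesis, glucosinolates being sulfur-rich defence compounds of this plant family, and it is described with APS3 and GTR1, which no list holds. APS3, an ATP sulfurylase of the entry step of sulfate assimilation, had signals of 2072 and 2437 in mock and 9338 and 12257 under MJ at 1 h, with no overlap. UGT74B1, a glucosyltransferase of glucosinolate synthesis, was bright before treatment, at 3375 and 3867 in mock, and reached 9558 and 10068 under MJ. GTR1, a glucosinolate transporter, had 1509 and 1319 in mock and 6955 and 6037 under MJ. APS3 rose 4.67-fold (limma adjusted p = 4.7e-07), UGT74B1 2.69-fold (9.15e-05) and GTR1 4.46-fold (2.3e-11). In the list of tryptophan and glucosinolate synthesis, 2 of 18 genes were tested and both rose: UGT74B1 and AT2G04400, which is no member (log2 difference 1.21 at 1 h but 0.37 at 30 min).

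Regulators among the sustained members included NAI1, a bHLH transcription factor needed for endoplasmic reticulum bodies, which store beta-glucosidases. NAI1 signals were 1176 and 987 in mock and 4863 and 4268 under MJ at 1 h, a 4.07-fold rise (adjusted p = 8.56e-06). The neighbouring locus AT2G22760 rose as well, by 1.58 on the log2 scale, close to the limit of the test (adjusted p = 0.0499). SMZ, an AP2-type repressor of flowering, had 542 and 320 in mock and 1905 and 1277 under MJ. GRX480, a glutaredoxin that binds TGA transcription factors, had 308 and 357 in mock and 2704 and 1638 under MJ. SMZ rose 3.42-fold (limma adjusted p = 0.000337) and GRX480 5.59-fold (2.08e-08), and at 3 h both lay closer to mock than at 1 h.

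CML38, a calmodulin-like calcium-binding protein gene known for quick responses to wounding, behaved differently in time. Its signals were 137 and 116 in mock and 714 and 506 under MJ at 1 h, and they reached 1042 and 1153 at 3 h. The 1 h rise of 3.62-fold (log2 difference 1.86, adjusted p = 0.0109) rested on a dim mock level and was lost when MJ replicate 1 (adjusted p = 0.173) or either mock array was left out, and on the deposited scale. STZ (ZAT10), a zinc finger gene of the same list of rapid wound and stress genes, rose by 3.00 at 1 h but is no member, because ABA raised it at 3 h (a difference of 2.27).

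Enzymes of other kinds were also sustained. GSTU26, a tau class glutathione transferase, had signals of 2070.5 and 2090 in mock and 8648 and 6260 under MJ at 1 h, and it climbed further to 12740 and 9498 at 3 h. TBL26, of a family of polysaccharide O-acetyltransferases, had 818 and 415.5 in mock and 10150 and 4641 under MJ at 1 h. Its 2 replicates lay apart in both groups, yet the groups did not overlap. GSTU26 rose 3.47-fold (limma adjusted p = 8.66e-10) and TBL26 10.8-fold (1.27e-05). UGT76B1, which glucosylates salicylic acid and a related signal, had 991 and 791 in mock and 2785 and 1831 under MJ. Its 2.46-fold rise (limma adjusted p = 0.02) was lost under 5 alternatives. Among them were those without MJ replicate 1, those without either mock array and the deposited scale. The cytochrome P450 gene CYP51G2 had 318.5 and 116 in mock and 751 and 305 under MJ, overlapping groups that did not pass the test (log2 difference 1.09, adjusted p = 0.266). APS3, GTR1, NAI1, SMZ, GRX480, GSTU26, TBL26, UGT76B1 and CYP51G2 were chosen for mention after their values had been seen, because the annotation gives them a name.

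**Figure D2:**
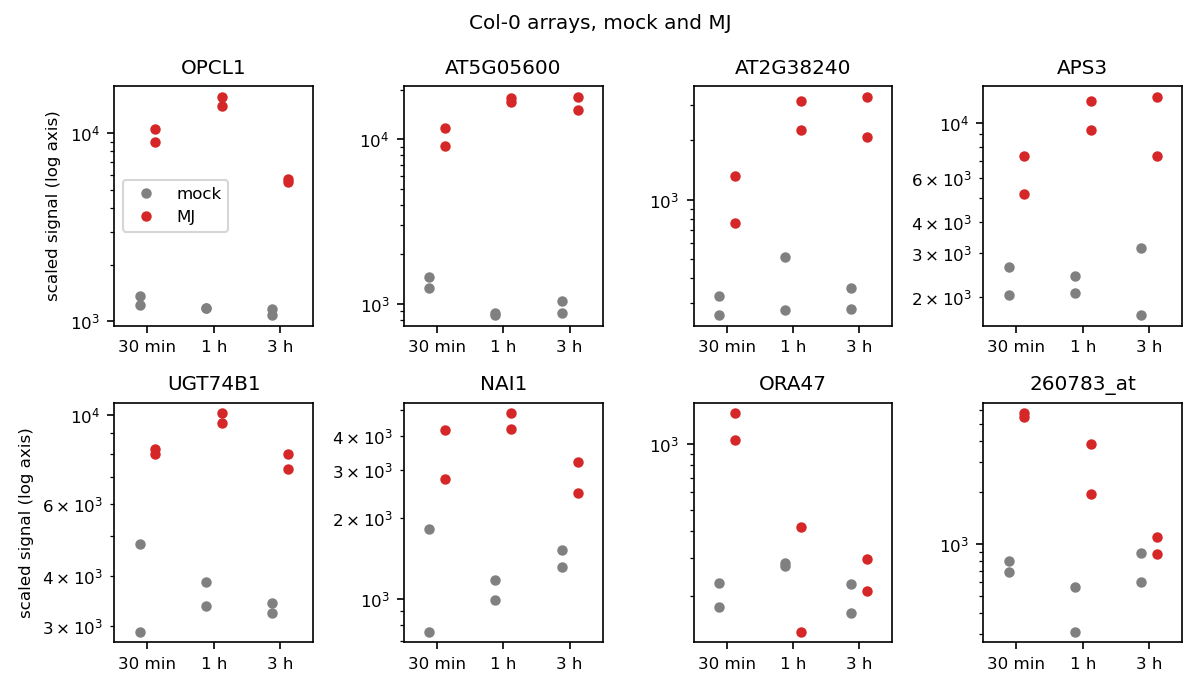
Scaled signal on a log axis in Col-0 at 30 min, 1 h and 3 h, with 1 point per array, grey for mock and red for MJ. OPCL1, AT5G05600, AT2G38240, APS3, UGT74B1 and NAI1 stay above mock at 3 h, while the ORA47 MJ arrays lie on either side of mock at 1 h and 260783_at is near them at 3 h.

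The largest rises belonged mostly to unnamed probe sets, which made up 11 of the 14 largest sustained differences at 1 h. 261033_at had signals of 208 and 52 in mock and 7734 and 6239 under MJ at 1 h, and 250292_at had 388 and 477 in mock and 18645 and 18290 under MJ. They rose 41.8-fold and 38.2-fold (limma adjusted p = 1.03e-13 and 3.2e-21). The lower mock array of 261033_at lay below the pseudocount of 55, and without it the log2 difference was 4.73 in place of 5.39. Against the same mock arrays 261033_at differed by 1.16 under BL, 1.10 under zeatin, 1.05 under GA3, 0.97 under ACC and 0.80 under both IAA and ABA. The other unnamed ones in this group rose between 13-fold (256178_s_at) and 34.7-fold (260399_at). AT1G52000, the last of the 14, rose 11.5-fold.

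Among the 102 members with a known locus, 5 pairs were direct neighbours in the annotation; how many such pairs other sets of loci hold was not computed. AT4G29690 and AT4G29700 differed from mock by 1.99 and 1.93 at 1 h, and AT1G14120 and AT1G14130 by 2.59 and 2.53. AT5G19100 and AT5G19110 differed by 1.78 and 3.13, and AT2G22760 lies beside NAI1. The remaining pair, AT1G18740 and AT1G18750 (AGL65, a MADS-box factor gene), was transient.

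The transient members were dim, and their median difference from mock at 1 h was below that of the sustained members. Of the 56, 55 passed the filter and 8 rose at 1 h, or 14.5% of those tested, with none called down; the background of 3.53% above applies. The count was 5 without either MJ array and 3 on the deposited scale. Their median difference was 0.43, from -0.70 to 2.55, and 48 of the 55 were above 0, against 7769 of all 17266. Above 0 at 1 h were also 47 of the 55 under ACC and 45 under BL, against 9980 and 10044 of all 17266. A difference of at least 0.5 was reached by 27 of the 56 under MJ, as by 27 under ACC and 25 under BL. At least 1 was reached under MJ by 15 (647 of all 17266). Both MJ arrays lay above both mock arrays for 30 (19.5% over all probe sets tested). The median scaled signal of the class at 1 h was 232 in mock and 329 under MJ, against 442 and 2774 for the sustained members and 756 in mock over all probe sets tested.

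ORA47, an AP2/ERF transcription factor that activates jasmonate synthesis genes, is the transient member from the list of jasmonate receptor and regulators. Its signals were 230 and 177 in mock and 1045 and 1388 under MJ at 30 min. At 1 h they were 276 and 285 in mock and 137 and 418 under MJ, and at 3 h 228 and 167.5 against 296 and 211. The difference was 2.29 at 30 min, -0.15 at 1 h (SE 0.29, limma adjusted p = 0.874) and 0.28 at 3 h. At 1 h the 2 MJ arrays lay on either side of mock, and without MJ replicate 1 the difference was 0.50 (adjusted p = 0.618).

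The strongest transient member at 1 h was 260783_at, with 566 and 310 in mock and 1958 and 3808 under MJ. It rose 5.86-fold (log2 difference 2.55, adjusted p = 3.21e-06), after 5486.5 and 5768 at 30 min, and was at 871 and 1101 at 3 h. 253259_at also rose at 1 h, by 2.03, but its MJ arrays read 159 and 1299.5. It lost its call under 7 alternatives, and without the higher MJ array the difference was 0.70. AT5G40340 rose by 1.45 (316 and 523 in mock, 974 and 1492 under MJ, adjusted p = 4.24e-06). The other 5 called were AT1G69890, 245563_at, 257927_at, 256763_at and AT1G18740, with differences of 0.74 to 1.18. AT1G69890 lost its call under 5 alternatives, with a difference of 0.46 without mock replicate 2 (adjusted p = 0.748). 257927_at lost it under 3 (adjusted p up to 0.184), and 245563_at (0.0533) and 256763_at (0.0715) under 1 each. ROXY2, a glutaredoxin gene known from anthers, had 60 and 54 in mock and 218 and 145 under MJ, a difference of 1.06 that did not pass (adjusted p = 0.483).

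The label "jasmonate-specific" comes from the rule, and at 30 min many transient members also stood above mock under other hormones. All hormones at 30 min were compared with the same 2 mock arrays that the rule used, so these values are a description. The rule favoured members low on those arrays, which raises every difference from them. The shares over all probe sets carry no such choice. The median difference of the transient members was 1.14 under MJ, 0.93 under ACC, 0.87 under BL and 0.68 under ABA, and 0.30 to 0.37 under IAA, zeatin and GA3. A difference of at least 1 was reached under ACC by 24 of the 56, under BL by 21 and under ABA by 9, against 259, 297 and 178 of all 17266 probe sets tested. In all, 33 of the 56 reached it under at least 1 of these 3, against 536 of all 17266. Mock was the lowest of the 8 groups for 30 of the 56 transient members, against 12.2% of all probe sets tested. MJ was the highest of the 8 for 37, against 1863 of all 17266. The rule took members high under MJ at 30 min, so this rank is partly its own.

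The median mock level of the transient class was 7.65 at 30 min, 8.16 at 1 h and 8.39 at 3 h on the log2(scaled signal + 55) scale. The rule took members that were low on the 30 min mock arrays, so this order is partly its own. In the mutants, whose arrays it did not use, the median mock level at the 3 times was 8.08, 8.49 and 8.03 in ga1-5 and 8.52, 8.22 and 8.55 in det2-1. No member differed between mock at 3 h and at 30 min over both mutants (limma, 0 of 17266 probe sets called, 652 at an unadjusted p under 0.05). For the sustained class the Col-0 mock medians were 9.05, 8.95 and 9.11. At 30 min MJ was the highest of the 8 groups for 138 of these 139 (1863 of all 17266), a rank that the rule partly set. Their medians under the other hormones lay between -0.05 and 0.15.

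At 1 h, with arrays outside the rule, the sustained class stood apart under MJ from the other hormone groups. MJ had the highest mean of the 8 Col-0 groups at 1 h for 138 of 139 sustained and 20 of 56 transient members, against 10.3% of all probe sets tested. MJ exceeded ABA, given at the same dose, for 133 sustained and 7 transient members (3.83% of all probe sets tested), with medians of 2.23 and 0.24. Probe sets raised by ABA at 3 h had been left out by the rule, so part of this gap can follow from the choice. MJ exceeded the mean of the other 6 hormones for 135 sustained and 12 transient members (4.11%). The median difference of the transient class from the shared mock arrays at 1 h was 0.48 under ACC and 0.45 under BL, beside 0.44 under MJ, while the medians over all probe sets tested were 0.05, 0.07 and -0.04. A difference of at least 1 was reached by 10 of the 56 under ACC, 7 under BL and 15 under MJ, against 353, 498 and 647 of all 17266. AT1G23690, a transient member, was lower under MJ than under the other 6 (log2 difference -0.98, adjusted p = 0.0457; background 3.6% down). The transient counts were smaller on some settings, with 3 or 4 in the comparison with ABA when an array of either group was left out.

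In all, 10 members passed under another hormone at 1 h. These comparisons share the mock arrays with MJ at 1 h. Because the rule left out probe sets raised by ABA at 3 h, the ABA counts at 1 h can partly follow from the choice. IAA raised 2 members (background 0.724% up), ACC raised 2 (0.156%), BL raised 4 (0.504%) and lowered 1 (0.44%), and ABA lowered 5 (0.591%) and raised none (2.02%). The transient members among them were 1 raised by ACC, 2 raised and 1 lowered by BL, and 1 lowered by ABA, and 15 of the 55 under ACC and 14 under BL had an unadjusted p under 0.05 (1685 and 2778 of all 17266). Zeatin and GA3 called no member, and over all probe sets tested zeatin called 0.434% and GA3 none (0.0%). At an unadjusted p under 0.05 were 25 and 5 of the 194 members tested, against 1268 and 547 of all 17266. A replicate block, which paired the arrays of every treatment by number, was run as an alternative. With it, the members called under at least 1 of the 6 hormones numbered 25 in place of 10. Fewer passed when either mock array was left out.

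260783_at moved under 3 hormones at 1 h. Its signals were 566 and 310 in mock, 1600 and 1805 under ACC, and 26 and 135 under ABA. ACC raised it by 1.88 on the log2 scale (SE 0.38, limma adjusted p = 0.011) and ABA lowered it, with a difference of -1.94 (adjusted p = 0.000684). No other member passed under both hormones. ABA also lowered 248794_at (-1.64), 246494_at (-1.30), 253485_at (-0.85) and 255773_at (-0.72), all raised by MJ at 1 h.

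BL raised 253485_at, which read 604 and 636 in mock, 2387 and 1482 under BL and 2932 and 5551 under MJ at 1 h. The BL rise was 2.87-fold (log2 difference 1.52, adjusted p = 0.000193). AT1G32920 rose under BL (0.69) and IAA (0.86), and 261470_at under IAA (1.04) and ACC (1.14). Of the transient members BL raised AT1G23690 (1.75) and 245563_at (0.90) and lowered AT1G18740 (-0.90).

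In det2-1, BL raised sustained members at 3 h, on arrays with no part in the choice. Of the 139 sustained members 14 rose (10.1%) and 1 fell, against 2.98% up and 1.49% down over all probe sets tested, and no transient member was called. Only 253485_at was called at 1 h (1.41, limma adjusted p = 0.000463), where 0.209% of all probe sets tested were called up. None was called at 30 min, where 0.029% of all probe sets tested were. At an unadjusted p under 0.05 were 9 of the 194 members tested at 30 min, against 659 of all 17266. Of the 14, 10 are unnamed. With the replicate block as an alternative 28 rose, and fewer rose without mock replicate 2.

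253485_at read 549 and 389 in det2-1 mock and 2141 and 1943 under BL at 3 h, a 4.05-fold rise (adjusted p = 5.32e-08). 250292_at read 623 and 464 in mock and 2306 and 2189 under BL, a 3.88-fold rise (5.74e-08), which is small beside the 10358 and 10202.5 it had under MJ in Col-0 at 3 h. The transporter gene GTR1 read 1743 and 1745 in mock and 3825 and 3884 under BL, a level like the 4231 and 3874 under MJ in Col-0. It rose 2.17-fold (limma adjusted p = 0.000102). The member that fell was AT4G25620, from 3741 and 2695 to 1587 and 1671 (log2 difference -0.94, adjusted p = 0.00908).

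**Figure D3:**
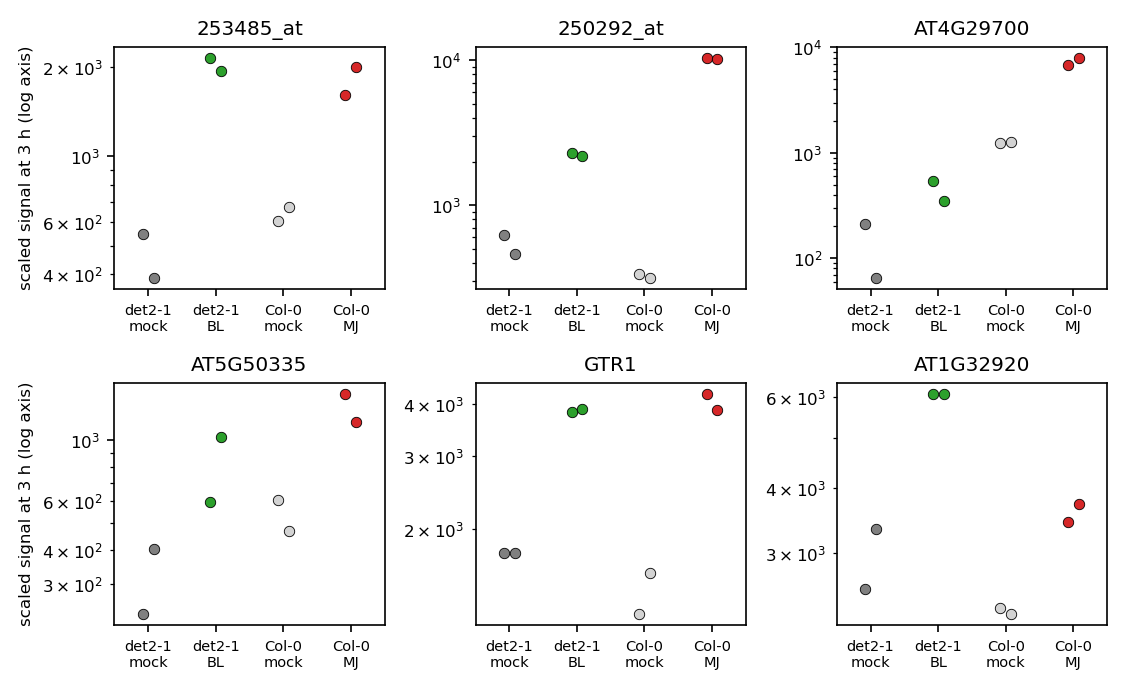
Scaled signal at 3 h on a log axis for 6 sustained members raised by BL in det2-1, with 1 point per array in det2-1 mock, det2-1 BL, Col-0 mock and Col-0 MJ. In each panel both BL arrays lie above both det2-1 mock arrays, and AT4G29700 stays below Col-0 mock even under BL.

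GA3 in ga1-5 called no member at 30 min, 1 h or 3 h (limma). Over all probe sets tested it called 0.00579%, 0.0463% and 0.145%. At an unadjusted p under 0.05 were 7, 11 and 8 of the 194 members tested, against 466, 506 and 724 of all 17266. No member passed a test of the difference in BL response at 1 h between det2-1 and Col-0 (0.029% of all tested). None passed for the GA3 response between ga1-5 and Col-0 (0.00579%). In these tests 20 and 9 members had an unadjusted p under 0.05, against 1339 and 476 of all 17266.

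Without hormone, the shares of members called higher in the mutants at 1 h were near or below those over all probe sets tested. In ga1-5 mock 12 of 139 sustained members were higher (8.63%) and 30 lower than in Col-0 mock. Of 55 transient members 5 were higher (9.09%) and 2 lower. Over all probe sets tested 12.1% were higher and 11.3% lower, so the sustained members called lower were above that share. In det2-1 the counts were 4 higher (2.88%) and 11 lower among the sustained and 1 (1.82%) and 1 among the transient, against 2.73% and 4.81%. On the deposited scale, where mutant arrays were brighter throughout, 132 and 71 members were called in place of 49 and 17, and without det2-1 mock replicate 2 or Col-0 mock replicate 2 the det2-1 count was 7. Without ga1-5 mock replicate 2 the ga1-5 count was 25.

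The comparisons of both mutants share the Col-0 mock arrays. AT4G29700 read 1371 and 1257 in Col-0 mock, 259 and 185 in det2-1 mock and 249 and 196 in ga1-5 mock at 1 h. The difference was -2.32 in det2-1 (limma adjusted p = 5.07e-08) and -2.31 in ga1-5 (2.15e-08). In det2-1 at 3 h BL raised it from 212 and 65 to 545 and 347 (log2 difference 1.46, adjusted p = 0.000366), below the Col-0 mock level of 1249.5 and 1276. AT5G50335 was the other member that was lower in det2-1 mock and raised there by BL, by 1.21 (adjusted p = 0.0189).

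AT5G19100 went the other way. It read 293 and 418 in Col-0 mock, 1271 and 1211 in det2-1 mock and 2044 and 2502.5 in ga1-5 mock at 1 h. It was thus 3.2-fold higher in det2-1 (adjusted p = 2.91e-05) and 5.72-fold higher in ga1-5 (2.06e-09), levels near or above those MJ gave in Col-0 at 1 h (1398 and 1277). GSTU26 was lower in det2-1 (-1.54) and in ga1-5 (-1.32). 265530_at read 2135 and 1888 in Col-0 mock, 1586 and 1155 in det2-1 and 239 and 88 in ga1-5 mock, a difference of -3.33 in ga1-5 (adjusted p = 1.71e-12).

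Other jasmonate genes stood outside the members. MYC3, a transcription factor released from JAZ repression, rose by 1.13 at 1 h (adjusted p = 0.000181) but had 0.44 at 30 min, and its relative MYC4 had 0.28 at 1 h and did not pass (adjusted p = 0.765). The defence genes PDF1.2 (-0.35, adjusted p = 0.923) and THI2.1 (0.39, adjusted p = 0.706), which encode a defensin and a thionin, did not pass at 1 h. DFR of anthocyanin synthesis had 0.12 (adjusted p = 0.919). Of the 3 tested genes of ABA and dehydration response, COR47, a dehydrin gene, fell under MJ (log2 difference -0.77, adjusted p = 0.0461), and COR15A and LEA4-5 did not pass.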

How the data were processed

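The deposited file gives, for each array, a linear intensity per probe set that the authors computed with MAS5, per the submitters' processing notes; genome build, scan dates and detection calls are not given in the sources used here. Control probe sets (64) were left out. The 2% trimmed mean of an array ranged from 871 to 1158 for Col-0 but from 1810 to 2963 for mutant seedlings, and all arrays were therefore brought to 1147. On Col-0 IAA 30 min replicate 2, 1973 probe sets with damaged values were treated as missing, and IAA at 30 min then rests on 1 array for them. A pseudocount of 55, 10% of the median signal, was added before log2, which understates changes of dim probe sets. A linear model with a mean for each group was fitted to the 72 arrays with limma 3.58.1 (R 4.3.3), with an intensity trend and 36 residual degrees of freedom, for the 17266 probe sets that exceeded the 40th percentile on 2 or more arrays. Calls used a Benjamini-Hochberg adjusted p under 0.05 over all of them. The fit was tested on simulated data.

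The members, the gene lists and the rule for named genes were chosen with earlier results of these data known. The rule named list members, the 14 largest and 6 smallest differences at 1 h in each class, up to 4 members called in each other comparison and the 3 probe sets on either side of the 30 min limit. GA3 responses in ga1-5 and Col-0 were compared by a test added after the data had been seen. Labels give the replicate numbers. Treated and mock arrays with one number deviated together for IAA, zeatin, GA3 and ABA in Col-0 and for BL in det2-1. For these r was over 0.1 at each of the 3 times (lowest 0.135). In Col-0 at 1 h r was 0.308 for MJ, 0.314 for ACC and 0.303 for BL, and at 3 h 0.0703, 0.0178 and 0.0377. The fit behind the reported counts did not pair arrays. A replicate block, run as an alternative, paired those of every treatment by number. The number of arrays limits the precision. Promoter sequences were not analysed here.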

Additional observations from a re-analysis of the deposited data

How the results depend on the processing

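Alternatives were other pseudocounts (2% and 50% of the median), the deposited scale, array medians, quantile normalization, no filter or a 60th percentile filter, only the arrays of the sets compared, no variance trend, the replicate block, each array left out, and, chosen after seeing the data, leaving out the damaged array. The sustained members raised by MJ at 1 h numbered 119 to 134 over these settings (131 in the report), those above ABA 120 to 135 (133) and those above the other 6 hormones 126 to 136 (135).

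Transient counts moved more. On the deposited scale 3 rose over mock, 4 over ABA and 6 over the other hormones, and 4 exceeded ABA when the fit held just the sets compared. Leaving out 1 array gave 5 to 8, 3 to 4 and 5 to 12. Members called under at least 1 other hormone at 1 h numbered 1 on the deposited scale, 5 with only the arrays of the sets compared, 25 with the replicate block and 5 to 11 with 1 array left out. For BL in det2-1 at 3 h the counts were 7 on the deposited scale, 28 with the replicate block and 9 to 16 with 1 array left out. For mutant mock against Col-0 mock they were 132 (ga1-5) and 71 (det2-1) on the deposited scale, where mutant arrays are brighter throughout, 36 for det2-1 with the replicate block, and 25 to 38 and 7 to 11 with 1 array left out. For GA3 in ga1-5 and for the BL response between genotypes the range was 0 to 1. The replicate block changed no other of these counts by over 1.5 times. Other causes were not tested.

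Of 53 named members, 32 kept direction and call under every alternative run. Leaving out 1 array turned the sign of 5 with small differences, whose values then ranged from -1.69 to 0.29 for 255634_at, -1.02 to 0.28 for AT5G24880, -0.98 to 0.58 for AT1G64560 (0.0087 without MJ replicate 1), -0.40 to 0.037 for AT1G76820 and -0.80 to 0.50 for ORA47. Where 1 array was left in a group it was assumed to vary like the other groups. Dim transient members limit what can be read from that class.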
